A study of Mus musculus with 8 samples.

Results

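The genes described here are 45 members of the translation machinery and of the terminal oligopyrimidine (TOP) class, compared for the presence of the histone H2A deubiquitinase MYSM1 at their starts. They are 5 elongation factor genes, 32 initiation factor genes and 8 others. The list was drawn up with earlier results of these data in view, and all 45 were found by symbol among 22238 protein-coding genes of an mm9 annotation. A gene was counted as having a promoter summit when a MYSM1 peak summit lay within 1 kb of any of its annotated transcription start sites (TSSs). The summits come from chromatin immunoprecipitation with an antibody to FLAG in 2 mouse blood progenitor lines that stably express murine MYSM1 carrying a triple FLAG tag under puromycin selection. Ba/F3 is a pro-B line kept in interleukin 3, and HPC7 models multipotent progenitors and is kept in stem cell factor. The sources used here do not state the promoter that drives the tagged protein or whether a line is 1 clone. The deposited list has 2099 summit positions with no score, read count or cell line, so the lines could not be compared, depth is unknown, and the lines' own markers could not be checked. No library was replicated, so shares carry an exact 95% binomial interval (Clopper-Pearson), which reflects counting error alone.

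Initiation factors bring the initiator tRNA, the small ribosomal subunit and the capped message together, and elongation factors then deliver aminoacyl-tRNAs and move the ribosome along. Messages of the TOP class begin with a cytidine followed by a run of pyrimidines, through which their translation is coupled to mTOR signalling by LARP1. The class holds the ribosomal protein messages, several elongation factors and a few others, such as those for poly(A)-binding protein and TPT1, so these genes are often considered together with the ribosomal protein genes.

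Promoter summits were found at 5 of the 45 genes: Eef2, Eef1g, Eif3d, Eif4g3 and Naca. This is 11.1% (interval 3.71% to 24.1%). Over all protein-coding genes the share was 0.567%, or 126 of 22238. The count stayed at 5 with limits of 500 bp, 2 kb and 5 kb, where the share of all genes was 0.445%, 0.728% and 1.29%. It also stayed at 5 with TSSs of coding transcripts only (0.526% of all genes), with 1 TSS per gene (0.472%) and with summits in unique sequence only (0.472%). The other 40 genes had no summit near a start, and none of them had one anywhere in the gene body.

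The sequences beside these 5 summits are shown because of a pattern that was noticed only after they had been read. It is the tetramer ATCC, then 6 bases of any kind, then ATCC again, so that the second copy starts 10 bases after the first. Each line below gives 30 bases on the strand of the gene, from the mm9 genome, with the tetramers in capitals.
Eef1g: gtcaccctATCCaccgccATCCtttgcctg
Eef2: ctctgagaATCCgtcgccATCCgccaccat
Naca: tgctttccATCCgtagccATCCtcgcctgc
Eif3d: cccgggccATCTgtcgccATCCgggcccgt
Eif4g3: tgaagaaaATCCgtccgcATCGcccgagcc
The runs are chr19:9041743-9041772 for Eef1g, chr10:80639444-80639473 for Eef2, chr10:127472760-127472789 for Naca and chr4:137549429-137549458 for Eif4g3, all on the plus strand, and chr15:77801127-77801156 on the minus strand for Eif3d. The exact pattern was carried by 3 of the 5, and Eif3d and Eif4g3 carried it with 1 change each. With only those summits counted that have the exact pattern within 50 bp, 3 of the 45 genes had a promoter summit, against 0.148% of all genes. Counting from 1 at the first A of the pattern, the change was C4T in Eif3d and C14G in Eif4g3. The 3 exact patterns read along the strand of the gene and began upstream of the summit, by 23 bp in Eef1g, 45 bp in Eef2 and 18 bp in Naca. The 2 changed ones did so by 19 bp in Eif3d and 71 bp in Eif4g3, the latter beyond the 50 bp used for counts. Patterns with 1 change were not counted near other summits. On the sense strand within 400 bp downstream of 1 TSS per gene, a best match with 1 change was found at 2202 of 22238 protein-coding genes. Of these, 1.14% had a promoter summit. Since the pattern was drawn from these very summits, its presence there is a description and was given no test.

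Elongation factors held 2 of the 5 genes. Eef2 encodes the factor that moves the ribosome by 1 codon, and its summit lay at position 80639497 of chromosome 10, 121 bp downstream of its only annotated TSS. The gene (ENSMUSG00000034994.9) spans 80639376 to 80645252 on the plus strand. Its first exon ends 98 bp after the TSS, and the start codon begins at 96 bp. The summit thus lay in the first intron while the paired tetramers lay in the 5′ UTR. The 30 bases shown (80639444 to 80639473) run into the start codon at their end. Eef1g encodes the gamma subunit of the exchange factor complex that reloads eEF1A with GTP. Its summit at 9041774 of chromosome 19 was 243 bp downstream of the TSS and in the first intron of the gene (ENSMUSG00000071644.4, 9041531 to 9052969, plus strand). The bases around this summit (chr19:9041724-9041824, mm9, plus strand) lie wholly in that intron and are shown with the whole pattern in capitals.
Eef1g: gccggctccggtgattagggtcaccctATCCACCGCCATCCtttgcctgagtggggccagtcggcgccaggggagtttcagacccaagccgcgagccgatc

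The other elongation factor genes had no promoter summit. Eef1a1, which encodes the factor that carries aminoacyl-tRNA to the ribosome, had its nearest summit 297 kb away. Eef1b2 and Eef1d encode the other exchange factor subunits, and their nearest summits were at 62.6 kb and 245 kb. The summit nearest to Eef1b2 belonged to another gene start, 26 bp downstream of a TSS of Ino80d, a subunit gene of a chromatin remodelling complex. The subunits of the same exchange complex thus differed in this readout: Eef1g had a summit and Eef1b2 and Eef1d did not.

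Initiation factors held 2 of 32 genes, 6.25% (interval 0.766% to 20.8%). Eif3d encodes an eIF3 subunit that can contact the cap. Its summit at 77801129 of chromosome 15 lay 125 bp downstream of its only TSS in the 5′ UTR part of the first exon (ENSMUSG00000016554.8, 77789428 to 77801254, minus strand). Eif4g3 encodes a paralog of the eIF4G scaffold. Its summit at 137549508 of chromosome 4 lay in a 5′ UTR exon (ENSMUSG00000028760.9, 137548937 to 137764423, plus strand). This gene has 11 annotated TSSs. The summit was 91 bp downstream of the nearest and 571 bp downstream of the most upstream, which was taken as its main TSS.

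Among the 12 genes of eIF3, the complex that coats the small subunit, Eif3d was the 1 gene with a promoter summit. The next nearest was Eif3g at 19.7 kb, and no gene lay between Naca at 384 bp and Eif3g, so the 1 kb limit fell in a wide gap. Eif3b followed at 47.1 kb, Eif3f at 169.5 kb, Eif3m at 309.6 kb, Eif3i at 316 kb and Eif3a at 512 kb. The others were farther: Eif3k at 584 kb, Eif3l at 686 kb, Eif3c at 723 kb, Eif3e at 1269 kb and Eif3h at 3060 kb. None of these summits met the limit for an eIF3 promoter.

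The 10 genes of eIF4 and cap binding showed the same division, with Eif4g3 inside the limit and the rest far outside it. Eif4g1, the main scaffold gene and the closest relative of Eif4g3, had its nearest summit at 1521 kb, and Eif4g2, a scaffold that lacks the binding site for eIF4E, at 779 kb. The helicase genes Eif4a1, Eif4a2 and Eif4a3, the last of which serves the exon junction complex, were at 479.6 kb, 897 kb and 704 kb. Eif4e, the cap-binding protein gene, was at 159.6 kb, its inhibitor Eif4ebp1 at 324 kb, and the helicase cofactor genes Eif4h and Eif4b at 383 kb and 5364 kb.

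No promoter summit was found at genes of start-codon selection and subunit joining, or of eIF2, eIF5A and eIF6. Eif1, Eif1a and Eif1ax, whose proteins keep the scanning subunit open, had nearest summits at 684 kb, 1355 kb and 382 kb. Eif5, which activates GTP hydrolysis by eIF2, was at 1230 kb, and Eif5b, which joins the subunits, at 656 kb. The eIF2 subunit genes Eif2s1, Eif2s2 and Eif2s3x were at 1058 kb, 1607 kb and 306 kb. Eif5a, whose product aids peptide bond formation at difficult sequences, was at 729.8 kb, and Eif6, which keeps the subunits apart, at 850.2 kb.

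**Figure D1:**
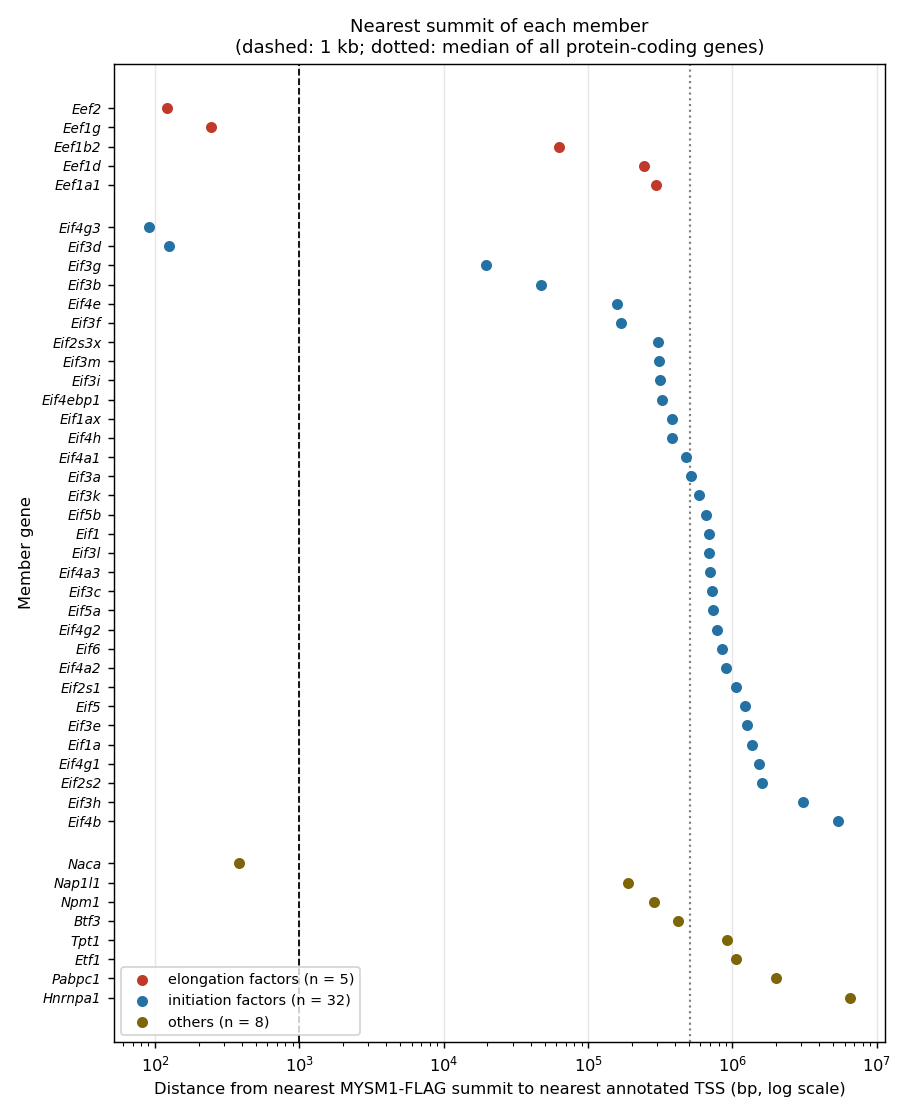
Distance in bp, on a log scale, from the nearest summit to the nearest TSS of each of the 45 genes, 1 point per gene, coloured by class. The 5 genes left of the dashed 1 kb line lie at 91 to 384 bp, and the next gene lies at 19.7 kb.

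The 8 other genes held 1 promoter summit, at Naca. This gene encodes the alpha subunit of the nascent polypeptide-associated complex, which meets new chains at the ribosome exit. Its summit at 127472786 of chromosome 10 was 384 bp downstream of the TSS, in the first intron (ENSMUSG00000061315.7, 127472402 to 127485693, plus strand). The 81 intronic bases around it (chr10:127472746-127472826, mm9, plus strand) are shown with the pattern in capitals.
Naca: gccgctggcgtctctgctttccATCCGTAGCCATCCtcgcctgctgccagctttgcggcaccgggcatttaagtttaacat

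Btf3, the gene of the beta subunit of that complex, had its nearest summit at 421 kb. The remaining genes of this group also lacked a promoter summit. Pabpc1, the poly(A)-binding protein gene, had its nearest summit at 1997 kb and Tpt1 at 914 kb. Npm1, the nucleolar chaperone gene, was at 284 kb and Nap1l1, a histone chaperone gene, at 187.5 kb. Hnrnpa1, a splicing factor gene, was at 6531 kb, and Etf1, the release factor gene, at 1052 kb. These distances do not speak for all TOP genes outside the ribosome, since the class also holds elongation factors, and Eef2 and Eef1g had a promoter summit.

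By class, the shares were 40% for elongation factors (2 of 5, interval 5.27% to 85.3%), 6.25% for initiation factors and 12.5% for the others (1 of 8, interval 0.316% to 52.7%). The 3 intervals overlap, and no test was run between classes of a list that had been chosen with earlier results in view. The median distance to the nearest summit was 512 kb over the 45 genes and 504 kb over all protein-coding genes. Among the 40 genes without a promoter summit it was 670 kb, against 509.5 kb over all protein-coding genes without one.

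The wider translation pathway was read from 5 lists. None of 39 other translation factors and regulators had a promoter summit (exact upper limit 9.025%). The same was true of 22 genes of cytosolic aminoacyl-tRNA synthetases (exact upper limit 15.4%) and of 10 mitochondrial translation factor genes (exact upper limit 30.85%). These counts of 0 do not separate the lists from the 0.567% of all genes. Of 17 matched genes in a list of other TOP messages and host genes of small nucleolar RNAs, 2 had a summit: Rack1, which encodes a scaffold protein of the small subunit, at 65 bp downstream of a TSS, and Cct4, a chaperonin subunit gene, at 70 bp. Both lay in the 5′ UTR on chromosome 11, Rack1 at 48613941 (Gnb2l1 in the annotation) and Cct4 at 22890722. Cytosolic ribosomal protein genes had one at 40 of 79, or 50.6% (interval 39.1% to 62.1%). The interval of the 45 genes ends below that of the ribosomal protein genes and begins above 0.567%. Because the 45 were listed with earlier results of these data in view, this describes the list and is not a test of enrichment.

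**Figure D2:**
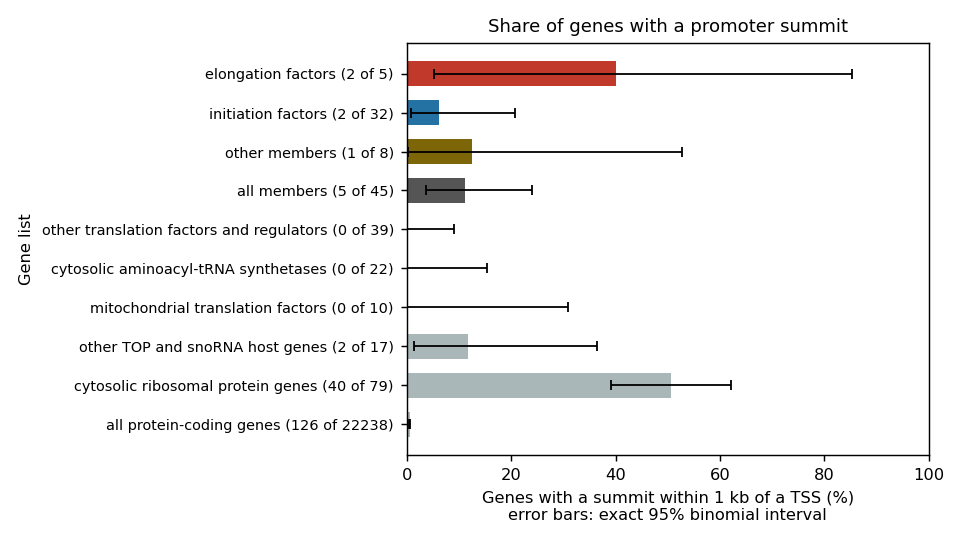
Share of genes, in percent, with a summit within 1 kb of a TSS, with counts beside each list and exact 95% intervals as error bars. Elongation factors stand at 40% with a wide interval, initiation factors at 6.25% and ribosomal protein genes at 50.6%.

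All 5 summits lay downstream of the TSS, at 91 bp (Eif4g3), 121 bp (Eef2), 125 bp (Eif3d), 243 bp (Eef1g) and 384 bp (Naca). The median was 125 bp. At the 40 ribosomal protein genes with a promoter summit the median was 83 bp downstream, with 34 of 40 downstream and a range from -143 to 295 bp. At the other 81 protein-coding genes with a promoter summit the median was 26 bp, 42 of 81 lay downstream, and the interquartile range, from -323 to 240 bp, took in both sides. Naca was beyond the farthest ribosomal protein gene, and the other 4 fell inside that range.

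**Figure D3:**
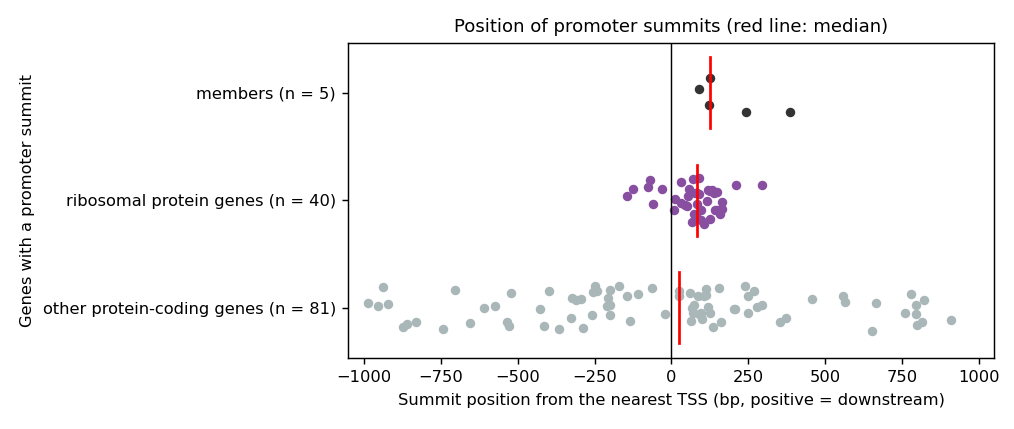
Position of each promoter summit in bp from the nearest TSS, positive downstream, 1 point per gene, with the median as a red line. The 5 points of the genes described here lie at 91 to 384 bp, all downstream, and the ribosomal protein genes have a median of 83 bp and reach 295 bp.

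The same pattern was present at Rack1 and Cct4, which are shown for comparison because they are the only other genes of the non-ribosomal lists with a promoter summit.
Rack1: tctgagctATCCggtgccATCCttgtcgct
Cct4: aagccggaATCCgtgtccATCCgtcctcct
These are chr11:48613909-48613938 and chr11:22890695-22890724 of mm9, both on the plus strand. The pattern began 24 bp upstream of the summit in Rack1 and 19 bp upstream in Cct4, again on the strand of the gene. Both were exact.

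**Figure D4:**
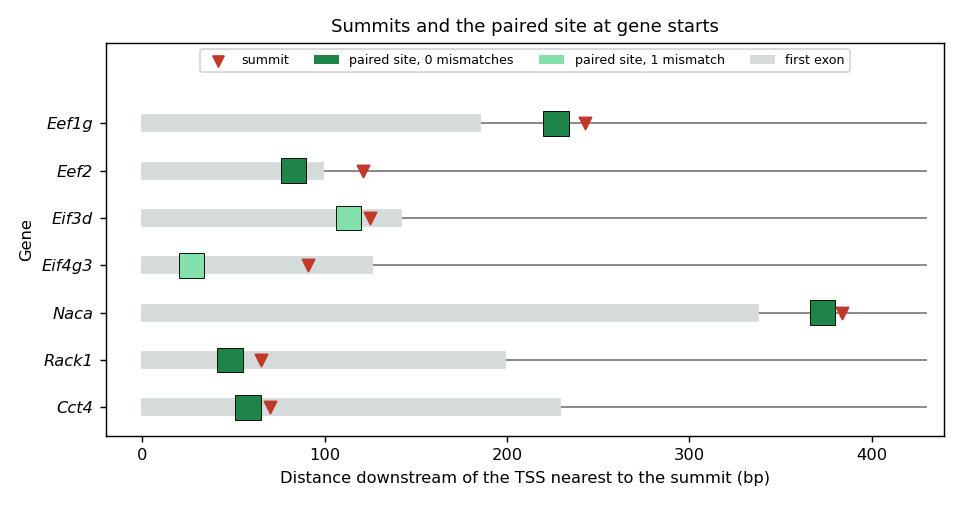
Gene starts drawn to scale in bp from the TSS nearest to the summit, with the first exon as a grey bar, the summit as a triangle and the 14-base paired site as a green box, dark when exact and light with 1 mismatch. In the 7 genes the site lies upstream of the summit, by 18 to 71 bp.

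The pattern was then counted on both strands within 50 bp of every summit. It was found at 3 of the 5 summits described here, at 14 of the 40 ribosomal protein summits (35.0%), at 29 of 147 promoter summits of any annotated gene (19.7%) and at 13 of 1952 summits away from promoters (0.666%). In windows of the same length centred 100 bp downstream of the main TSS it was found at 57 of 22238 protein-coding genes, or 0.256%. The main TSS is the one at which the largest number of coding transcripts of a gene start, or the most upstream of those tied. The heptamer GCCATCC, which overlaps the second tetramer, was within 50 bp of 4 of the 5 summits, all but that of Eif4g3. It is part of the sequences shown for these 4 genes, so its presence there is a description as well. It was near 14 of the 40 ribosomal protein summits and 31 of all 2099 (1.48%), against 1.96% of the same gene windows.

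The place and strand of the pattern went with the presence of a summit. Of 86 protein-coding genes with the exact pattern on the sense strand within 300 bp downstream of the main TSS, 27 had a promoter summit (31.4%, interval 21.8% to 42.3%), against 99 of 22152 genes without it (0.447%). With the pattern on the sense strand within 300 bp upstream, 1 of 72 had a summit. On the antisense strand the counts were 0 of 61 downstream and 4 of 71 upstream. Of the 86 genes, 16 were ribosomal protein genes, 15 of which had a summit, and 3 were among the 45 genes. The remaining 67 belonged to neither list, and 10 of them had a summit (14.9%, interval 7.396% to 25.7%). These counts include the genes from which the pattern was drawn, and they are descriptions of 1 summit list.

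**Figure D5:**
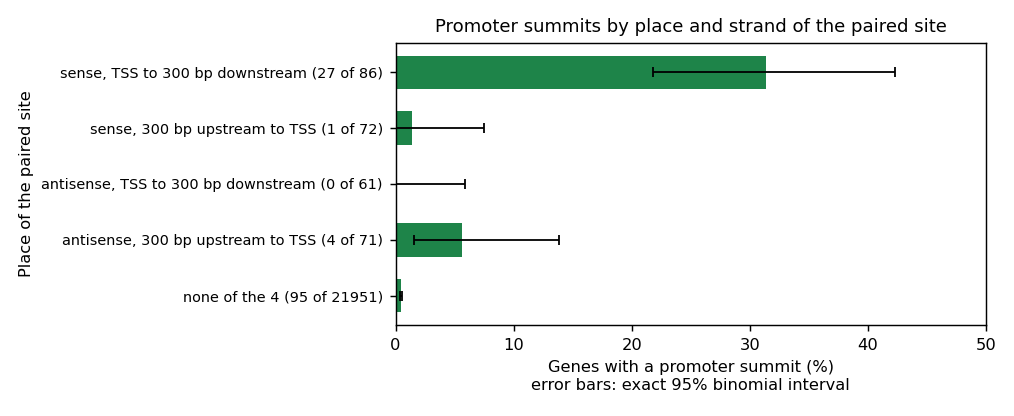
Share of protein-coding genes with a promoter summit, in percent with exact 95% intervals, by the place and strand of the paired site relative to the main TSS. The share is 31.4% for the site on the sense strand within 300 bp downstream and at most 5.63% at the other places.

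Of the 3 genes of the 45 in that group, Eef2 and Eef1g had a summit and Eif4g1 did not. The sequence of Eif4g1 is shown because it carries the exact pattern without a summit. It begins 178 bp downstream of the main TSS, in an intron (chr16:20672992-20673021, mm9, plus strand).
Eif4g1: ccccccgcATCCgccgccATCCgggccggg
Its nearest summit was at 1521 kb. Eif4ebp1 had the pattern on the antisense strand and no summit. Allowing mismatches on the sense strand within 400 bp downstream of the main TSS, 4 of the 45 genes had the exact pattern (Eef1g, Eef2, Naca and Eif4g1), and 3 of these had a summit. Another 4 had a best match with 1 mismatch (Eif3d, Eif4g3, Eif2s2 and Eif4ebp1), and 2 of these had one. The match counted here for Eif4g3 is not the site shown beside its summit, which lies outside this window because its nearest TSS is far downstream of the main one. Of 16 genes with 2 mismatches and 21 with more, 0 had one. The pattern was drawn from the genes of the 45 with a summit, so this split was largely set in advance. It is a description and was given no test. The 400 bp window is longer than the one that defines the group above. It takes in Naca, whose pattern begins 366 bp downstream of the TSS. Over all protein-coding genes, these 45 included, the shares with a summit were 27.6% of 105 genes with an exact match and 1.14% of 2202 with 1 mismatch. They were 0.360% of 13344 with 2 and 0.364% of 6587 with more.

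The pyrimidine start that defines the TOP class was not found at the main TSS of any gene of the 45 with a summit. For Eif4g3 the main TSS is not the one nearest to its summit. A cytidine at the main TSS followed by at least 4 pyrimidines was found at 4 of the 45 genes (8.89%) and at 1.99% of all protein-coding genes, and none of the 4 had a summit. By the same measure it was found at 3 of 79 ribosomal protein genes (3.80%) and at 1 of the 40 of these with a summit, although their messages belong to the TOP class, so the annotated TSS misses most TOP starts and the absence of the run at the 5 genes is not informative. The 4 genes of the 45 that have the run are shown with Rack1, which has both the run and a summit. Each is given in 30 bases with the TSS at base 16 and the run in capitals.
Pabpc1: caggaggcggtgcttCCCCTTCTCCCCggc
Eif3h: gcgcctcacgcttctCTTTCTTCCTgtctg
Eif3f: tgttctaggctctctCTCTTTCTCggcaag
Eif2s1: tcgtcacagcgccctCTCTTggttgactaa
Rack1: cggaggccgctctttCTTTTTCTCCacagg
The positions in mm9 are chr15:36538714-36538743 (minus strand) for Pabpc1, chr15:51697013-51697042 (minus) for Eif3h, chr7:116077916-116077945 (plus) for Eif3f, chr12:79962791-79962820 (plus) for Eif2s1 and chr11:48613847-48613876 (plus) for Rack1. The starts of 3 of the genes with a summit show no such run at the annotated TSS.
Eef2: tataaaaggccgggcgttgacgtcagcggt
Eef1g: ccccacccctcgctttttccaactcagcgg
Naca: gcaactcgttctcttaaagaggaaacccgg
These are chr10:80639361-80639390, chr19:9041516-9041545 and chr10:127472387-127472416, on the plus strand. In Eef1g a run of 8 pyrimidines crosses the annotated TSS, which lies on a T. A run of at least 8 pyrimidines within 20 bp of the main TSS was found at 1 of the 5 genes with a summit, at 12 of the 40 without (30.0%) and at 15.8% of all genes. With the start sites of RefSeq (GRCm38.p6), 3 of 33 matched genes began with the run: Eif2s3x, Eif3f and Nap1l1. Of the 4 genes found with the first annotation, only Eif3f was among them. Eif2s1 did not begin with the run there, and Pabpc1 and Eif3h were not matched, so the 2 annotations largely differ. Eef2, Eif3d, Eif4g3 and Naca again did not begin with it, and Eef1g was not matched.

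CpG content overlapped between the genes with a summit and those without. This and the consensus sequences below were read at the main TSS, which for Eif4g3 is not the TSS nearest to its summit. The ratio of observed to expected CpG within 500 bp of the TSS was 0.682 in Eef1g, 0.8455 in Eif4g3, 0.852 in Eif3d, 0.862 in Eef2 and 0.889 in Naca. It had a median of 0.860 over the 40 genes without a summit and of 0.549 over all protein-coding genes. It exceeded 0.6 at 44 of the 45 genes, the exception being Eef1a1 at 0.492. Among 10173 protein-coding genes with such a CpG-rich promoter, 0.885% had a summit. The SP1 consensus GGGCGG was found, on either strand from 250 bp upstream to 50 bp downstream of the TSS, at 3 of the 5 genes with a summit and at 29 of the 40 without (72.5%), against 44.0% of all promoters. The ETS consensus CCGGAAG was found at 1 of 5 and 12 of 40, against 10.8% of all promoters, and the E-box CACGTG at 1 of 5 and 7 of 40, against 7.70%. AAGATGGC, a YY1 consensus, was found at 0 of 5 and 6 of 40, against 3.35%, and CCAAT, the NFY consensus, at 1 of 5 and 12 of 40, against 37.9%. The palindromic NRF1 consensus was found at 0 of 5 and 2 of 40, against 1.17%, and TATAAA at 1 of 5, which was Eef2, and 3 of 40, against 13.5%.

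Repeated sequence was rare at the starts of the 45 genes, as at those of most protein-coding genes. The median number of genome copies of the 31-base words within 100 bp of the main TSS was 1 at all 45 genes. It was also 1 at 78 of 79 ribosomal protein genes and at 91.9% of all protein-coding genes. At 4 of the 45 under 90% of the words were unique: Eif4ebp1 (84.8%), Eif3h (77.2%), Btf3 (74.9%) and Hnrnpa1 (60.8%), none with a summit. The spliced messages were less unique, with a median of at least 2 genome copies at 11 genes. The highest were 6 for Hnrnpa1, 5 for Eef1a1 and 3 for Eef1g, Eif1 and Npm1, of which Eef1g had a promoter summit. All 5 promoter summits lay in windows whose median copy number was 1. The sources used here do not say how reads with several placements were treated, and the part of this in the result was not tested. Small nucleolar RNA genes lay inside 10 of the 45 genes on the same strand. Of these Eef2 had a summit and the other 9, among them Eif4a1, Eif4a2 and Tpt1, had none. Of all 45 genes, 5 (11.1%) had a summit, so the count does not set the host genes apart. No such count over all protein-coding genes is given.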

How the data were processed

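The deposited file holds the authors' MYSM1-FLAG peak summits as chromosome, start, end and name, without a header. The 2 coordinates are the same on each of the 2099 lines. Bowtie 1.0.0, MACS 1.4.1 and mm9 are named in the submitters' processing notes. The sources used here do not state thresholds, controls, pooling of lines or the base from which positions count. The 8 libraries form 8 groups of 1. Input, H2AK119ub and H3K27ac libraries were not analysed here.

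Positions were joined to NCBIM37 (mm9) and GENCODE M1 with Python 3.11.15, pysam 0.24.0 and SciPy 1.17.1. Of 170 pathway genes listed, 167 matched. Copy number counts 31-base words in the genome. The members, lists and rules were chosen with earlier results of these data known. The named genes are every member, and pathway genes with a summit within 1 kb except ribosomal protein genes. Ino80d, Angptl6 and 1700061J05Rik are named outside this rule, after their values were seen, as the genes beside summits nearest to members. The paired pattern was chosen after the data were seen. In simulated data 200 of 200 planted summits were recovered among 22238 genes. No list test was run. Alternatives were the window, the TSS set, unique summits, position base, CpG-rich genes and class borders.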

Additional observations from a re-analysis of the deposited data

How the results depend on the processing

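The share of the 45 genes with a promoter summit was 11.1% with windows of 500 bp, 2 kb and 5 kb, with TSSs of coding transcripts only, with 1 TSS per gene, with summits in unique sequence only and with positions counted from 0, and it was 5 genes each time. The windows and the position base could not change this count, since the 5 summits lay at 91 to 384 bp and the next at 19.7 kb. Nor could the limit to unique sequence, since all 5 summits lay in windows with a median copy number of 1. The background moved from 0.445% at 500 bp to 0.728% at 2 kb and 1.29% at 5 kb, and it was 0.472% with unique summits only. Among members with a CpG-rich promoter the share was 11.4%. With only summits that have the paired ATCC pattern within 50 bp, a setting chosen after the data were seen, it was 6.67% against 0.148% of all genes. With Eif5a moved, elongation factors had 33.3% and initiation factors 6.45%, and without Etf1 and Pabpc1 the others had 16.7%. The median distance was 757 kb with unique summits only, which keeps 732 of the 2099. Fewer summits can only lengthen distances, and no value over all protein-coding genes is given for this setting. No paired analysis was possible because each group has 1 library and the result comes from no test. Small classes, a lack of replicates and a depth that the file does not give limit these values.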

Other observations

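Where the nearest summit of a gene without a promoter summit lay was recorded for all 40. In 21 of them it was in a window with a median copy number of 1, and in 19 it was in repeated sequence. Of all 2099 summits, 732 lay in windows with a median copy number of 1. The summit 19.7 kb from Eif3g lay 799 bp downstream of a TSS of Angptl6, a gene of a secreted angiopoietin-like protein, and the one nearest to Eif3l lay at -242 bp from a TSS of 1700061J05Rik. Eif4a1 and Eif5a on chromosome 11 shared their nearest summit, as did Eif4a2 and Eif4g1 on chromosome 16 and Eif4b and Hnrnpa1 on chromosome 15. These distances, and the counts of 21 and 19 genes, are therefore not of independent summits. The deposited peak names carry a running number from 1 to 2099 that does not follow the genome. It was 29 for Eef2, 32 for Eif3d, 40 for Eif4g3, 68 for Eef1g and 80 for Naca. The sources used here do not say what orders the numbers, and they were not read as strength.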
